A study of Homo sapiens with 4 samples.

Results

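This account covers 36 genes of 2 cell guidance systems, the Eph receptors with their ephrin ligands and the plexins and neuropilins with their semaphorin ligands, in HLE cells. HLE is an established human hepatocellular carcinoma line. The genes were chosen by symbol among protein-coding rows (EPHA, EPHB, EFNA, EFNB, SEMA and PLXN genes with NRP1 and NRP2). Of 20286 gene rows, 54 had such a symbol, and the 36 with a mean of at least 1 CPM (counts scaled to the TMM-adjusted size of their library) over all libraries are described. They are 23 ligand genes (7 ephrins and 16 semaphorins) and 13 receptor genes (4 Eph receptors, 7 plexins and 2 neuropilins). RNA was sequenced from 2 groups, HLE cells stably carrying the vector (vector 1 and 2) and HLE cells stably expressing CYR61 (CYR61 1 and 2). CYR61, now named CCN1, is a secreted protein of the extracellular matrix. Both groups were grown in the same medium with serum and received no treatment. The series' design text describes the 2 libraries of a group as separate cultures of the whole stable population, not of clones. P-values therefore measure the spread between cultures of 1 stable population per group.

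Eph receptors are the largest family of receptor tyrosine kinases. They bind ephrins on a neighbouring cell, so that contact sends a signal into both cells, the forward signal through the receptor and a reverse signal through the ephrin. A-type ephrins are held in the membrane by a lipid anchor and B-type ephrins span it. Semaphorins are secreted (class 3) or held in the membrane (the other vertebrate classes) and signal through plexins, whose inner part acts on small GTPases. Most class 3 semaphorins need a neuropilin as co-receptor. Both systems were found as guides of growing axons and also act on cell adhesion, movement and blood vessel growth in epithelia and tumours.

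Libraries held 16186988 to 21588822 estimated counts. CYR61 itself stood at 221 and 218 CPM with the vector and at 8091 and 8620 CPM with CYR61 expressed, a log2 fold change of 5.25 with an SE of 0.13 (edgeR adjusted p = 1.33e-08), which matches the labels. Of 8 hepatocyte markers, ALB, APOA2 and TTR were at 0 in all libraries and only HNF4A (4.32 CPM) reached a mean of 1 CPM, so the hepatocyte markers listed were mostly absent from this line. Summed over 7 endothelial markers the level was 7.79 to 8.33 CPM, mostly from ERG (a mean of 5.57 CPM) and VWF (1.34 CPM), with EMCN at 0. Over 5 neuronal markers it was 1.88 to 2.81 CPM, mostly from SNAP25 (a mean of 1.76 CPM), with STMN2 and ELAVL4 at 0. Of the hepatoma markers GPC3 was at 0 and AFP at most at 0.0627 CPM. Summed over 6 fibroblast and stellate cell markers, led by COL1A1 and PDGFRB, the cultures stood at 46.9 and 38.7 CPM with the vector and 35.6 and 37.8 CPM with CYR61. Summed over 6 leukocyte markers, nearly all of it CD68 with CD3E at 0, they stood at 68.2 and 63.4 CPM and at 49.1 and 53.9 CPM. Both sums were lower in both CYR61 cultures, and their part in the results was not tested. In bulk RNA, fewer cells of a type and less RNA per cell cannot be told apart.

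Of the 54 genes with a matching symbol, 18 were below 1 CPM. EPHA1, EPHA3, EPHB1 and EPHB6 had 0 counts in all 4 libraries. A further 11 had a few counts and were not tested, among them EPHA4, EPHB3, EFNB3, SEMA3D, SEMA3E, SEMA4A and PLXNA4. The remaining 3, EPHA10 (0.674 CPM), EPHA5 (0.590 CPM) and PLXNC1 (0.680 CPM), were tested and not called (edgeR adjusted p = 0.563, 0.811 and 0.847). Just inside the limit of 1 CPM stood SEMA4G (1.04 CPM) and EFNA2 (1.20 CPM), and the nearest gene outside it was PLXNC1. Most of the Eph receptor family was thus near or at 0 in HLE cells, while 16 of 20 semaphorin genes passed the limit.

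**Figure D1:**
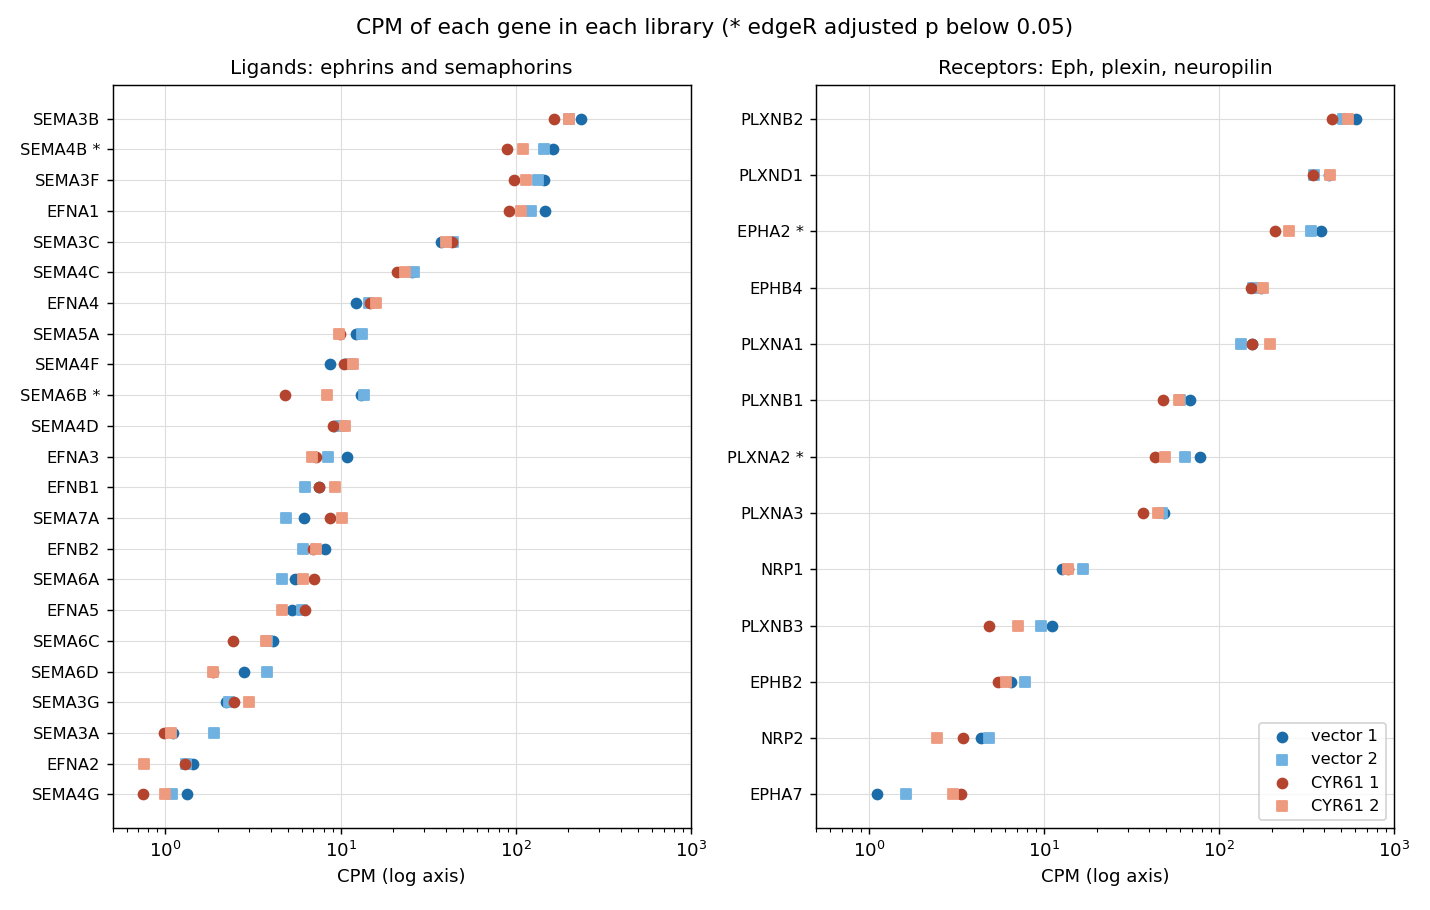
CPM on a log axis for each of the 36 genes (rows), with ligands on the left and receptors on the right; each point is 1 library, circles for culture 1 and squares for culture 2, blue for vector and red for CYR61. The genes with an asterisk had an edgeR adjusted p below 0.05, and in each of these both CYR61 points lie left of both vector points.

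The comparison asks which of these genes differ when CYR61 is stably expressed, and whether ligands and receptors differ alike. EPHA2, PLXNA2, SEMA4B and SEMA6B fell in CYR61-expressing cells and no gene of the 36 rose by edgeR's quasi-likelihood test (adjusted p below 0.05, called below). That is 4 of 36 called lower (11.1%), against 4.56% of the 12698 genes tested, and 0 of 36 called higher, against 1.83% (6.39% called in either direction). Among the 12031 tested genes of at least 1 CPM, 4.73% were called lower and 1.90% higher (6.63% in all). DESeq2 and limma-voom called the same 4 genes lower and none higher. Among ligands 2 of 23 were lower, and among receptors 2 of 13. The median log2 fold change was -0.26 over the ligands, -0.23 over the receptors and -0.006 over all genes tested. No test of the difference between the roles was made. The medians were -0.15 and -0.09 without CYR61 1. Among the 28 of the 36 genes with at least 5 CPM in 2 libraries, they were -0.07 and -0.24. CPM of the groups did not overlap in 27 of the 36 genes, with CYR61 lower in 20, against 27.7% of all genes tested, and higher in 7, against 23.9%. By edgeR's unadjusted p, 12 of the 36 were below 0.05 (10 lower and 2 higher), against 22.9% of all genes tested. The calls changed when 1 library was left out. Such a fit has 1 library in a group, which is assumed to vary like the other group, and it tests with fewer libraries. Without CYR61 1 no gene was called lower and SEMA7A was called higher. Without vector 1 only SEMA6B was called lower. Without CYR61 2, 6 were called lower (EFNA1 and PLXNB3 in addition) and EPHA7 higher.

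**Figure D2:**
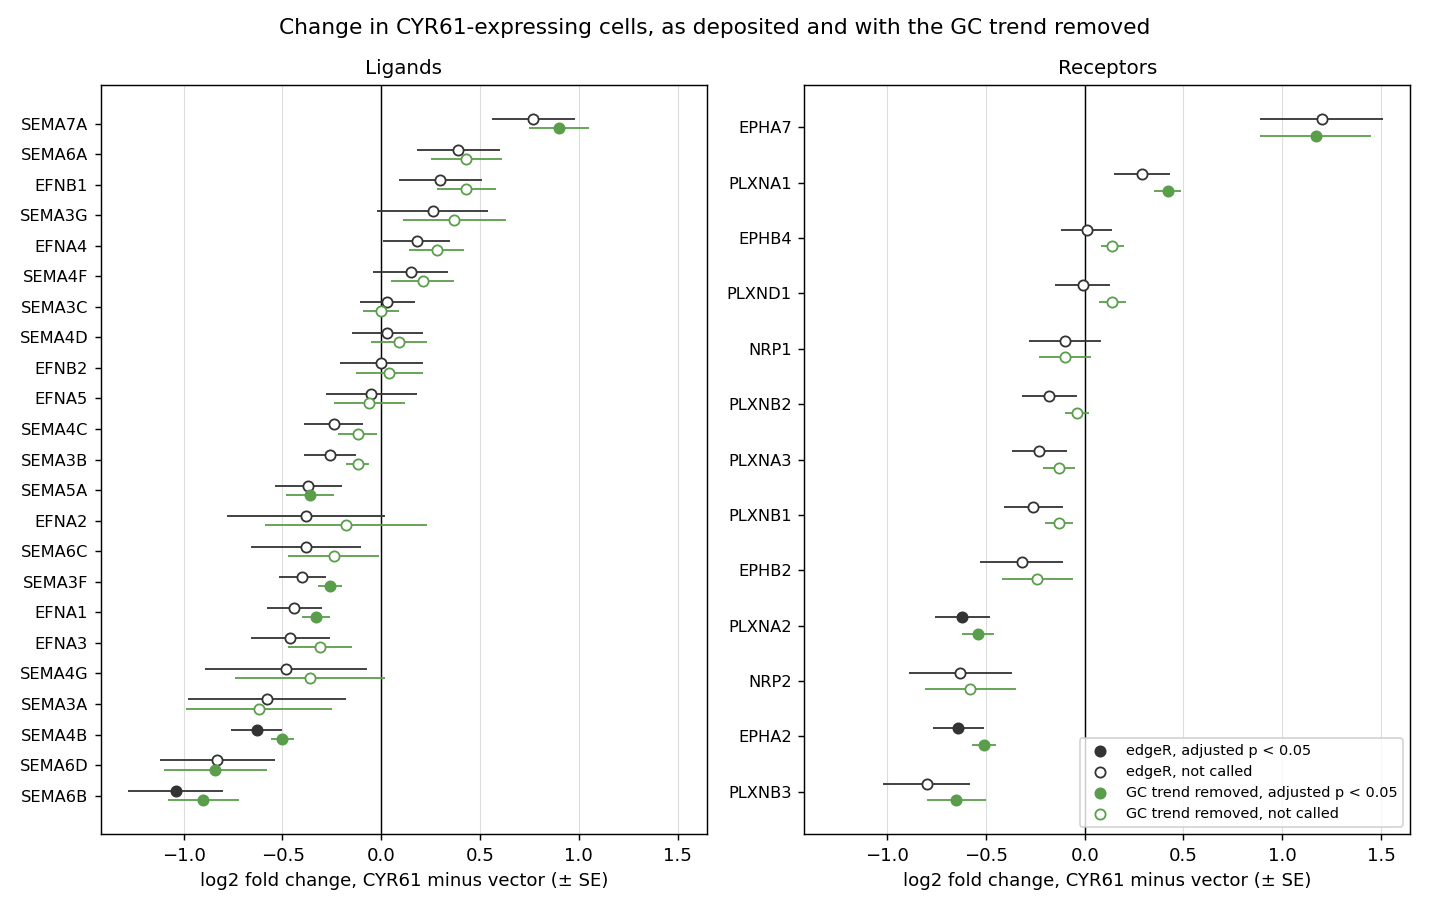
Log2 fold change (CYR61 minus vector) with its SE for the 36 genes, ligands on the left and receptors on the right; black is the edgeR fit to the deposited counts and green the fit with each library's trend on GC content removed, and filled points have an adjusted p below 0.05. Black filled points are EPHA2, PLXNA2, SEMA4B and SEMA6B, all left of 0.

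EPHA2 was the most abundant Eph receptor and the one that fell. It encodes an ephrin-A receptor of epithelial cells that is often abundant in carcinomas. EPHA2 (ENSG00000142627, hg38 chromosome 1, 16124337 to 16156087, minus strand) was at 380 and 335 CPM in vector 1 and 2 and at 210 and 251 CPM in CYR61 1 and 2. Both CYR61 cultures were below both vector cultures, with means of 358 ± 32.1 and 230 ± 28.9 CPM (SD, n = 2 each). The log2 fold change was -0.64 (SE 0.13, edgeR adjusted p = 0.0166), a 1.55-fold fall. The call was lost without vector 1 (a log2 fold change of -0.54, edgeR adjusted p = 0.0728) and without CYR61 1 (-0.50, 0.0846).

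The other abundant Eph receptor, EPHB4, the receptor of ephrin-B2 on vein endothelium, behaved differently. EPHB4 was at 174 and 156 CPM in the vector cultures and at 153 and 179 CPM in the CYR61 cultures. These values overlap fully, and the log2 fold change was 0.01 (SE 0.13, edgeR adjusted p = 0.977). Per kilobase (kb) of the longest transcript, the ratio of EPHA2 to EPHB4 within a library was 2.79 and 2.75 in the vector cultures and 1.75 and 1.78 in the CYR61 cultures. This ratio, looked at after the values of both genes were seen, does not depend on how libraries are scaled, and the 2 transcripts have a similar GC content of 60.3% and 60.8%. It was nearly the same in both cultures of a group and lower in both CYR61 cultures.

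EPHB2, a receptor of B-type ephrins, was at 6.48 and 7.84 CPM in vector and 5.44 and 6.08 CPM in CYR61 cultures (log2 fold change -0.32 with an SE of 0.21, edgeR adjusted p = 0.396). EPHA7, an ephrin-A receptor best known from the developing brain, was scarce, with 21 and 36 counts in vector 1 and 2, and 72 and 48 counts in CYR61 1 and 2. In CPM that is 1.11 and 1.63 against 3.35 and 3.01, so that both CYR61 cultures were above both vector cultures. The log2 fold change of EPHA7 was 1.20 (SE 0.31), the largest above 0 among the 36 genes, and it missed the threshold (edgeR adjusted p = 0.0509).

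Promoter windows are shown for EPHA2, PLXNA2 and SEMA4B, which fell, and, for comparison, for EFNA1, a ligand of EPHA2, and for EPHB4, whose groups overlapped. Each window runs from 250 bases before to 50 bases after a RefSeq transcript start (GRCh38.p14), 5′ to 3′ on the gene's strand, and gene counts do not tell which start HLE cells use. Capitals mark matches, on either strand, to 6 short motifs: TEAD (GGAATG), SMAD (CAGAC), AP-1 (TGANTCA), CRE (TGACGTCA), HIF (ACGTG) and the GC box (GGGCGG). TEAD and SMAD proteins are the DNA-binding partners of YAP and of TGF-beta signalling, which the series title names.
EPHA2, chr1:16156020-16156319, minus strand: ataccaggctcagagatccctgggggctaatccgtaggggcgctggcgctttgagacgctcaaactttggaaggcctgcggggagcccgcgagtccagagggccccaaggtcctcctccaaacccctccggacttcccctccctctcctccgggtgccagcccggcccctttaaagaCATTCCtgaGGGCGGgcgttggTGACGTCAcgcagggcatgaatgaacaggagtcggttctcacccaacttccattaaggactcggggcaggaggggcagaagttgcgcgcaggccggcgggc
EFNA1, chr1:155127626-155127925, plus strand: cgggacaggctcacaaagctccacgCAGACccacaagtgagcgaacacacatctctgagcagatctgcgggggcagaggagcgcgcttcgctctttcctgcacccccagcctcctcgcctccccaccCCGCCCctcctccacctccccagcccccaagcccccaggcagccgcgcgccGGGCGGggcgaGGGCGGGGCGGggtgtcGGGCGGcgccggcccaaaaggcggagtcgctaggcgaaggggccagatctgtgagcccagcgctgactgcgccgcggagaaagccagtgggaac
EPHB4, chr7:100827474-100827773, minus strand: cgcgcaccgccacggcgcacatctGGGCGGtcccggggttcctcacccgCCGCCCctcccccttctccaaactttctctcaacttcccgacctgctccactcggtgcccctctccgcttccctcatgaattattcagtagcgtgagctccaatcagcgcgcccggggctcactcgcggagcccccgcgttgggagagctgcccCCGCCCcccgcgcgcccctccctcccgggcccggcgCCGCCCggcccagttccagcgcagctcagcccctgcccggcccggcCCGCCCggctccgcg
PLXNA2, chr1:208244335-208244634, minus strand: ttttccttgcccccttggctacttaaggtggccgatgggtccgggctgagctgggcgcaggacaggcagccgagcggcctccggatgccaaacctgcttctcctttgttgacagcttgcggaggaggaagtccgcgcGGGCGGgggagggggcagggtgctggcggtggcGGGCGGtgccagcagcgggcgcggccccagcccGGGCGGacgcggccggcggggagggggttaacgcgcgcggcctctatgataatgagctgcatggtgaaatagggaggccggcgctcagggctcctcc
SEMA4B, chr15:90201080-90201379, plus strand: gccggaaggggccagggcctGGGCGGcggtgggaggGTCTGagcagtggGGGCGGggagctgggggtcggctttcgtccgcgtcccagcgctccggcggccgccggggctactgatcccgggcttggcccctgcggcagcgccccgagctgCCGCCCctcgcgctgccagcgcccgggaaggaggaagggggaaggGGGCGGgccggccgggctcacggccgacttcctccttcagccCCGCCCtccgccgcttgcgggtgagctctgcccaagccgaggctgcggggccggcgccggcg
The EPHA2 window holds a TEAD match (CATTCC, first base at -73 from the start) and a full CRE (first base at -51), with a GC box between them. EFNA1 has 5 GC boxes, 2 of which overlap by 1 base, and a SMAD match at -225. EPHB4 has 5 GC boxes and PLXNA2 has 3, with no match to the other 5 motifs. SEMA4B has 3 listed windows, and the one shown has 5 GC boxes and a SMAD match. Of those not shown, the window from 90184670 has 3 GC boxes and no SMAD match. The window from 90191671 has a SMAD match and no GC box. Of the 36 genes, 32 had a window in the table, 49 windows in all. NRP1, SEMA3A, SEMA6A and SEMA6B had none. The GC box was present in 83.7% of these 49 windows and in 44.9% of 34943 human promoter windows of the same length. The GC box holds only G and C, and no windows matched for GC content were compared. Some of the 49 windows overlap, among them those of EPHB2. TEAD matches stood in 12.2% against 14%, SMAD in 42.9% against 45.3%, HIF in 20.4% against 21.4%, CRE in 6.12% against 1.84% (3 windows, of EPHA2, SEMA3B and SEMA4C), and AP-1 in 0 against 7.72%. A match describes letters in a window and is neither a binding site nor a cause.

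EFNA1, an ephrin-A ligand that binds EPHA2, was the leading ephrin. It was at 147 and 123 CPM in the vector cultures and at 91.2 and 108 CPM in the CYR61 cultures. The groups did not overlap, yet the log2 fold change of -0.44 (SE 0.14) was not called (edgeR adjusted p = 0.0864). It was called without CYR61 2 (-0.56, edgeR adjusted p = 0.0271). Per kb, EPHA2 exceeded EFNA1 by a ratio of 1.26 and 1.32 with the vector and of 1.12 and 1.13 with CYR61 expressed.

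EFNA4 and EFNA3, A-type ephrins that lie side by side on chromosome 1, share exons with a joint gene model, EFNA4-EFNA3, so the division of reads among them is uncertain. EFNA4 was at 12.3 and 14.6 CPM in vector and 14.7 and 15.9 CPM in CYR61 cultures (a log2 fold change of 0.18, edgeR adjusted p = 0.580). EFNA3 was at 10.9 and 8.47 CPM and at 7.21 and 6.83 CPM (a log2 fold change of -0.46, edgeR adjusted p = 0.205). Summed over the 3 models, the locus stood at 23.3 and 23.3 CPM in vector and 21.9 and 22.7 CPM in CYR61 cultures, a narrower gap than for EFNA3 alone. EFNA5 (log2 fold change -0.05) and EFNA2 (-0.38, with 12 to 29 counts) were not called.

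The transmembrane ephrins EFNB1 and EFNB2, ligands of EphB receptors, were both low. EFNB1 was at 7.49 and 6.25 CPM in vector and 7.58 and 9.33 CPM in CYR61 cultures (log2 fold change 0.30 with an SE of 0.21, edgeR adjusted p = 0.424). EFNB2, the ligand of EPHB4, was at 8.18 and 6.12 CPM and at 6.98 and 7.27 CPM, with the CYR61 values inside the vector range (log2 fold change -0.00 with an SE of 0.21, edgeR adjusted p = 0.997). The EPHB4 and EFNB2 pair thus gave overlapping values in both genes. An antisense model covers 26.2% of the EFNB2 exons, and without strand its reads cannot be told apart from those of EFNB2.

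Among the 5 secreted class 3 semaphorins, SEMA3F alone was below an unadjusted p of 0.05 and none was called by edgeR, DESeq2 or limma-voom. SEMA3B and SEMA3F, both known as candidate tumour suppressors of chromosome 3, were the 2 most abundant. SEMA3B was at 237 and 203 CPM in the vector cultures and at 165 and 202 CPM in the CYR61 cultures (log2 fold change -0.26 with an SE of 0.13, edgeR adjusted p = 0.277). SEMA3F, which signals through NRP2, was at 145 and 135 CPM and at 98.4 and 114 CPM (log2 fold change -0.40 with an SE of 0.12, edgeR adjusted p = 0.0869). For SEMA3B the nearest values of the groups, 202 and 203 CPM, all but touch, while those of SEMA3F stood apart. SEMA3C was at 37.6 to 43.9 CPM in vector and 40.1 to 43.2 CPM in CYR61 cultures (a log2 fold change of 0.03, edgeR adjusted p = 0.923). SEMA3G (2.27 ± 0.0571 and 2.74 ± 0.383 CPM; n = 2 each) and SEMA3A (1.51 ± 0.557 and 1.02 ± 0.0623 CPM), the classic axon repellent, were scarce and not called.

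Membrane semaphorins held both ligands that fell. SEMA4B, a transmembrane class 4 semaphorin (ENSG00000185033, chromosome 15, 90160604 to 90229679, plus strand), was at 163 and 145 CPM in the vector cultures and at 89.8 and 110 CPM in the CYR61 cultures. The groups stood apart, with a log2 fold change of -0.63 with an SE of 0.13 (edgeR adjusted p = 0.0221), a 1.55-fold fall. The call was lost without vector 1 (-0.54, edgeR adjusted p = 0.113) and without CYR61 1 (-0.48, 0.110). SEMA4B was the most abundant membrane semaphorin, and its size of change equalled that of EPHA2 on the log2 scale within 0.01.

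SEMA6B, a class 6 semaphorin that binds A-type plexins, had the largest fall of the 36 genes. It (ENSG00000167680, chromosome 19, 4542593 to 4559808, minus strand) was at 13.1 and 13.7 CPM in vector and at 4.84 and 8.40 CPM in CYR61 cultures. The vector cultures agree closely and the CYR61 cultures differ from each other, both below vector. The log2 fold change was -1.04 (SE 0.24, edgeR adjusted p = 0.0336), a 2.05-fold fall. Without CYR61 1 it was -0.66 and not called (edgeR adjusted p = 0.113), without CYR61 2 it was -1.47 (2.38e-06), and with library size alone it was -1.05 (0.0569).

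The other class 6 genes differed in direction and were not called. SEMA6A was at 5.47 and 4.62 CPM in vector and at 7.02 and 6.14 CPM in CYR61 cultures (log2 fold change 0.39 with an SE of 0.21, edgeR adjusted p = 0.307). SEMA6D was at 2.81 and 3.81 CPM and at 1.86 and 1.88 CPM (-0.83 with an SE of 0.29, edgeR adjusted p = 0.122), and SEMA6C at 4.14 and 3.81 CPM and at 2.42 and 3.76 CPM (-0.38, edgeR adjusted p = 0.454). The groups of SEMA6A did not overlap, with CYR61 higher, nor did those of SEMA6D and SEMA6C, with CYR61 lower. For SEMA6C the nearest values, 3.76 and 3.81 CPM, all but touch. The ratio of SEMA6A to SEMA6B per kb was 0.242 and 0.195 in the vector cultures and 0.841 and 0.424 in the CYR61 cultures. Their transcripts differ in GC content (49.3% and 67.7%), for which the ratio was not corrected.

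SEMA7A, the lipid-anchored semaphorin, had the highest log2 fold change of the ligands. It was at 6.21 and 4.89 CPM in vector and at 8.70 and 10.2 CPM in CYR61 cultures, without overlap. The log2 fold change was 0.77 (SE 0.21) and missed the threshold (edgeR adjusted p = 0.0573). Its plexin receptor gene, PLXNC1, was below 1 CPM (0.735 ± 0.462 and 0.625 ± 0.357 CPM, n = 2 each). SEMA5A was at 12.3 and 13.2 CPM in vector and 9.96 and 9.77 CPM in CYR61 cultures (a log2 fold change of -0.37, edgeR adjusted p = 0.228). Of the remaining class 4 genes, SEMA4D, a ligand of PLXNB1, had a log2 fold change of 0.03, SEMA4F 0.15, SEMA4C -0.24 and SEMA4G -0.48, none called. SEMA4G shares 22.3% of its exons with MRPL43 on the opposite strand, a gene at 70.0 to 85.1 CPM, so the 16 to 25 counts of SEMA4G are uncertain.

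PLXNA2, a plexin that binds class 6 semaphorins, was the plexin that fell. PLXNA2 (ENSG00000076356, chromosome 1, 208022242 to 208244320, minus strand) was at 77.8 and 64.1 CPM in the vector cultures and at 43.3 and 49.4 CPM in the CYR61 cultures. The groups did not overlap, and the log2 fold change was -0.62 (SE 0.14, edgeR adjusted p = 0.0323), a 1.53-fold fall. The call was lost without vector 1 (-0.47, edgeR adjusted p = 0.271) and without CYR61 1 (-0.51, 0.111). SEMA6B and PLXNA2, from families known to pair as ligand and receptor, were both among the genes that fell, with calls that each rested on CYR61 1.

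Its relative PLXNA1, which with a neuropilin carries class 3 semaphorin signals, was at 154 and 133 CPM in vector and at 155 and 195 CPM in CYR61 cultures (log2 fold change 0.29 with an SE of 0.14, edgeR adjusted p = 0.248). Per kb, the ratio of PLXNA1 to PLXNA2 within a library was 2.49 and 2.63 in the vector cultures and 4.53 and 4.99 in the CYR61 cultures. This ratio too was looked at after the values were seen, and it was not corrected for GC content (61.6% for PLXNA1 and 54.2% for PLXNA2). PLXNA3 was at 48.3 and 47.3 CPM and at 37.0 and 44.7 CPM (a log2 fold change of -0.23, edgeR adjusted p = 0.368). Summed over PLXNA1, PLXNA2 and PLXNA3 the level was 262 ± 24.6 CPM in vector and 262 ± 37.9 CPM in CYR61 cultures (n = 2 each), so the A-type total did not differ beyond its spread.

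The 2 most abundant plexins, PLXNB2 and PLXND1, overlapped between groups. PLXNB2, a receptor of class 4 semaphorins, was at 607 and 513 CPM in vector and 439 and 547 CPM in CYR61 cultures (log2 fold change -0.18 with an SE of 0.14, edgeR adjusted p = 0.463). PLXND1, the endothelial receptor of SEMA3E, was at 424 and 348 CPM and at 342 and 428 CPM (log2 fold change -0.01 with an SE of 0.14, edgeR adjusted p = 0.986), while SEMA3E itself had at most 6.20 counts. In both genes vector 1 and CYR61 2 were the higher culture of their group. PLXNB1 was at 68.4 and 59.8 CPM and at 47.7 and 59.3 CPM (-0.26, edgeR adjusted p = 0.316). PLXNB3 was at 11.1 and 9.56 CPM and at 4.88 and 7.08 CPM (-0.80 with an SE of 0.22, edgeR adjusted p = 0.0616), without overlap. PLXNB3 shares 20.4% of its exons with SRPK3, and the locus sum was 18.4 and 14.2 CPM in vector and 11.4 and 13.8 CPM in CYR61 cultures, so its value is uncertain.

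Summed, the neuropilins, co-receptors of class 3 semaphorins and of VEGF, were far below the plexins. NRP1 was nonetheless above PLXNB3 in every library. NRP1 was at 12.6 and 16.8 CPM in the vector cultures and at 13.7 and 13.7 CPM in the CYR61 cultures (log2 fold change -0.10 with an SE of 0.18, edgeR adjusted p = 0.786). NRP2 was at 4.35 and 4.85 CPM and at 3.44 and 2.44 CPM (-0.63 with an SE of 0.26, edgeR adjusted p = 0.179), with both CYR61 cultures lower. Per kb, NRP1 and NRP2 together reached 2.70 to 3.58 CPM, against 149 to 194 CPM for the 7 plexins.

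Compared between genes, levels are given as CPM per kb of the longest transcript, a scale that corrects for length. Among Eph receptors EPHA2 took 73.2% and 72.7% of the summed level in the vector cultures and 62.9% and 63.4% in the CYR61 cultures, with EPHB4 at 26.3% and 26.5% and then 35.9% and 35.6%. EPHA2 therefore led in every library, with a smaller share in both CYR61 cultures. Among ephrins EFNA1 took 77.4% and 74.4% in vector and 68.4% and 71.5% in CYR61 cultures. Among plexins PLXNB2 took 46.3% to 49.1% and PLXND1 30% to 32.6% in each library. Among semaphorins SEMA3B led with 37.9% to 41.9%, followed by SEMA4B (23.9% and 23.2% in vector, 19.0% and 19.6% in CYR61) and SEMA3F (20.4% to 21.7%). Using the length of all exons joined in place of the longest transcript, the mean level of SEMA4B changed from 33.3 to 18.1 and that of SEMA3F from 32.4 to 25.5 CPM per kb, which reverses their order.

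Summed over each role, ligands were at 264 ± 20.4 CPM per kb in vector and 209 ± 22.6 in CYR61 cultures, and receptors at 306 ± 31.5 and 261 ± 36.8 (SD, n = 2 each). The ratio of summed ligands to summed receptors was 0.848 and 0.879 in the vector cultures and 0.821 and 0.784 in the CYR61 cultures. Both CYR61 ratios were below both vector ratios, by a margin about as wide as the spread within a group. The sums follow the few abundant genes: the Eph receptor sum in CYR61 cultures was 74.3% of that in vector cultures, the plexin sum 93.2%, the ephrin sum 80.0%, the class 3 semaphorin sum 82.4% and the sum of other semaphorins 72.7%.

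**Figure D3:**
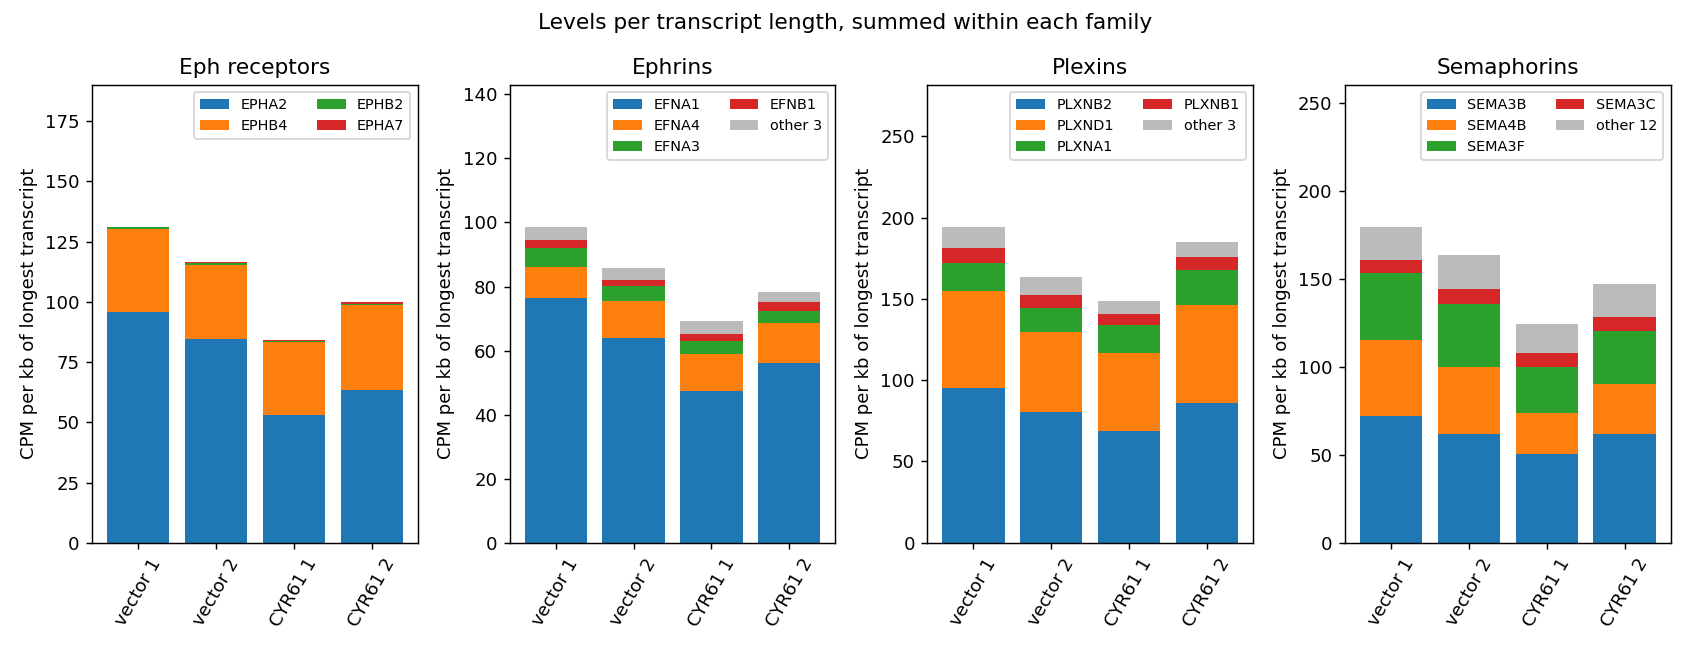
Bars give CPM per kb of the longest transcript in each of the 4 libraries, stacked by gene within Eph receptors, ephrins, plexins and semaphorins, with the 4 leading genes coloured and the rest in grey. The blue EPHA2 segment is shorter in both CYR61 libraries, while the orange EPHB4 segment is of similar height in all 4.

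Within each group the cultures differed along the GC content of the transcripts. As a description across 10364 genes at 5 CPM or more, the difference of vector 2 from vector 1 had a Spearman correlation of -0.73 with GC content, and that of CYR61 1 from CYR61 2 had -0.78. The guidance genes are richer in GC than most, with a median of 58.7% against 48.8% for all genes tested. Split at 57%, a value set after the data were seen, 22 of the 36 were GC-rich. Of these 18 were higher in vector 1 than in vector 2 and 20 were higher in CYR61 2 than in CYR61 1. Of the 14 others it was 3 and 8. EPHA2, SEMA4B and all 7 plexins were higher in vector 1 and in CYR61 2 than in the other culture of their group.

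**Figure D4:**
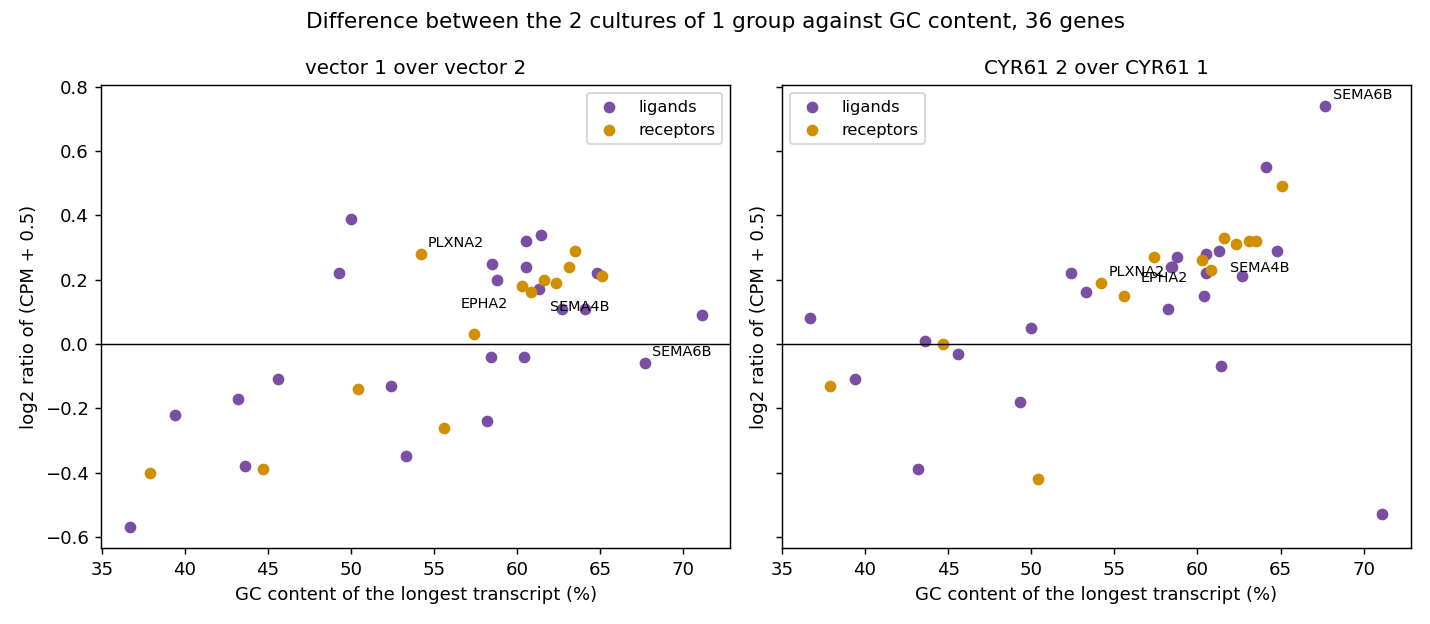
Each point is 1 of the 36 genes, with GC content of the longest transcript on the x axis (%) and the log2 ratio of (CPM + 0.5) between the 2 cultures of a group on the y axis, vector on the left and CYR61 on the right. Points above 57% GC lie mostly above 0 in both panels.

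With each library's trend on GC content removed, the 4 falls stayed called and 8 further genes were called. The trend was fitted to each library's deviation from the mean of all libraries. Any difference between the groups that follows GC content was therefore removed with it. That makes 12 of 36, 9 lower and 3 higher (33.3%), against 28.5% of all genes tested (12% lower and 16.5% higher). Over all genes the calls were then 1527 lower and 2092 higher, and 579 and 232 without the removal. The log2 fold change was then -0.51 for EPHA2 (edgeR adjusted p = 0.000288), -0.50 for SEMA4B (0.000443), -0.54 for PLXNA2 (0.00147) and -0.90 for SEMA6B (0.00530). The further lower genes were EFNA1 (-0.33, edgeR adjusted p = 0.00610), SEMA3F (-0.26), PLXNB3 (-0.65), SEMA6D (-0.84) and SEMA5A (-0.36, edgeR adjusted p = 0.0497). The higher ones were PLXNA1 (0.42, edgeR adjusted p = 0.00141), SEMA7A (0.90, 0.00198) and EPHA7 (1.17, 0.0121). Of ligands 6 were then lower and 1 higher, and of receptors 3 lower and 2 higher. The medians moved to -0.12 over ligands and -0.13 over receptors, against 0.03 over all genes tested.

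Genes that act with these receptors were read from 4 lists, to be set beside the 6.39% of all tested genes that were called (4.56% lower, 1.83% higher). In 37 tested genes of Eph signalling, 3 were lower and 1 higher (10.8% called). GRB10, an adaptor of receptor tyrosine kinases, was at 88.5 and 91.9 CPM in vector and 38.9 and 34.1 CPM in CYR61 cultures (log2 fold change -1.30 with an SE of 0.13, edgeR adjusted p = 0.000436). The adaptor gene GRB7 (-0.86, edgeR adjusted p = 0.0388) and FYN, a SRC-family kinase gene (-0.68, 0.0120), fell, and VAV3, an exchange factor gene, rose (1.51, 0.0246). The GRB7 call was lost without CYR61 1 (edgeR adjusted p = 0.151) and with library size alone (0.0588), that of FYN without vector 2 (0.0614) and that of VAV3 without vector 1 (0.0910). The other 33 were not called, among them SRC (0.11), PTPN11 (0.10) and ADAM10 (0.03), the protease that cuts ephrins from the cell surface.

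In 34 tested genes of semaphorin and plexin signalling, which share FYN and PTPN11 with that list, 3 were called, all lower (8.82%). DPYSL2 and CRMP1 encode collapsin response mediator proteins, which carry class 3 semaphorin signals to microtubules. DPYSL2 was at 87.0 and 84.9 CPM in vector and at 50.9 and 48.2 CPM in CYR61 cultures (log2 fold change -0.79 with an SE of 0.12, edgeR adjusted p = 0.00444). CRMP1 was at 61.4 and 52.9 CPM and at 35.4 and 36 CPM (-0.68 with an SE of 0.14, edgeR adjusted p = 0.0167), a call lost without vector 1 (0.153). The cultures of each group were close to each other for DPYSL2, while for CRMP1 the vector cultures stood further apart. RHOA (-0.01), RAC1 (-0.12), FARP1 (-0.05) and MICAL3 (0.18) were among the 31 not called. With the GC trend removed, 5 genes of this list were higher (MICAL3, FARP2, RAP1B, CFL1 and LIMK1) and 5 lower (29.4%), and of the Eph list 3 were higher and 8 lower (29.7%), against 28.5% of all genes tested.

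Of 12 tested partner receptors and neuropilin ligands, VEGFA alone was called (8.33%), at 137 and 130 CPM in vector and 65.4 and 69.1 CPM in CYR61 cultures (a log2 fold change of -0.99, edgeR adjusted p = 0.00128), while the plexin partner MET (0.00) and ERBB2 (0.06) were not. Of 11 tested netrin, slit and related guidance genes, 2 fell (18.2%). With the GC trend removed, 2 of the 12 and 4 of the 11 were lower. NTN4, a netrin of basement membranes, was at 45.0 and 48.7 CPM in vector and 26.4 and 24.5 CPM in CYR61 cultures (log2 fold change -0.88 with an SE of 0.14, edgeR adjusted p = 0.00502). The netrin receptor gene UNC5B was at 12.4 and 10.2 CPM and at 6.0 and 7.27 CPM (-0.78, edgeR adjusted p = 0.0473), a call lost by DESeq2 (adjusted p = 0.0644) and limma-voom (0.0535). It was also lost with RLE size factors (edgeR adjusted p = 0.0526), with library size alone (0.0599), without vector 1 (0.260) and without CYR61 1 (0.166). NTN1 (-0.82, edgeR adjusted p = 0.0675) and the netrin and RGM receptor gene NEO1 (-0.45, 0.0732) were not called. The median log2 fold change was -0.06 over the Eph list, -0.09 over the semaphorin list, -0.18 over the partners and -0.51 over the 11 others, beside -0.006 over all genes tested.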

How the data were processed

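RNA of 4 HLE libraries was analysed, 2 vector and 2 CYR61. Per library, the authors deposited estimated counts for 20286 Ensembl identifiers, of which 11.2% to 12% were not whole. The submitters' processing notes name hg38, Cuffdiff 1.3.0, Cufflinks 2.2.1 and TopHat2 2.1.1. Counting program, annotation and strandedness were each not given in the sources used here. A gene name table gave symbols (20228 identifiers matched). Positions, exon overlaps on both strands, transcript lengths and GC content came from GENCODE release 29 (GRCh38, 20212 matched).

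The estimated counts were rounded, filtered with filterByExpr (12698 of 20286 genes tested), scaled by TMM and fitted on group alone with edgeR 4.0.16 (glmQLFit, glmQLFTest, R 4.3.3), with Benjamini-Hochberg adjustment over all tested genes and a threshold of 0.05. CPM used the TMM-scaled library sizes. Each SE was computed as the size of the log2 fold change over the root of the F statistic. The number of counts limits precision. Alternatives were DESeq2 1.42.0, limma-voom (limma 3.58.1), other scalings and filters, a replicate block, removal of the GC trend (natural spline, 5 degrees of freedom, fitted as offsets) and each library left out. A block with crossed numbers was chosen after seeing the data. Scripts were tested on simulated data.

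The genes, the lists and the alternatives were chosen with earlier results of these data known. Full values were given for called genes and, per gene class, for the gene of highest CPM per kb and that of smallest p; from each pathway list, called genes were named, and uncalled genes of the lists were picked after their values were seen. Promoter windows are RefSeq's (GRCh38.p14).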

Additional observations from a re-analysis of the deposited data

How the results depend on the processing

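Among the 36 genes, 28 kept the sign of their log2 fold change under every alternative that tested them, and the other 8 had a size of at most 0.15. The stricter filter did not test 8 of those 28 (EFNA2, EPHA7, SEMA3A, SEMA3G, SEMA4G, SEMA6C, SEMA6D and NRP2). EPHA2, SEMA4B, PLXNA2 and SEMA6B were lower throughout, though not always called. SEMA6B was not called with library size alone (edgeR adjusted p = 0.0569). With the replicate block SEMA6B stayed called, while EPHA2 (edgeR adjusted p = 0.0785), SEMA4B (0.0969) and PLXNA2 were not. Called lower and higher, the 36 genes numbered 4 and 0, against 7 and 2 without a filter, 4 and 1 with RLE size factors, 9 and 3 with the GC trend removed, and 6 and 3 with that and the replicate block. Leaving out 1 library gave 0 to 6 lower and 0 to 1 higher. Over all genes, 579 lower and 232 higher became 1029 and 648 without a filter, 1527 and 2092 with the GC trend removed and 1024 and 1311 with that and the block. By DESeq2, 356 genes were higher. Leaving out 1 library gave 377 to 793 lower and 104 to 538 higher.

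Same-numbered libraries deviated from their group means in opposite directions (correlation -0.714 over 10378 genes), so this value shows no pairing by number. It was not computed with the GC trend removed, and whether same-numbered cultures were handled together was not tested. With the replicate block, 338 genes were lower and 53 higher, and SEMA6B was the 1 gene of the 36 still called lower. Crossed numbers as the block were chosen after seeing the data. Of 12698 genes tested, that block gave 2876 lower and 2748 higher, and among the 36 it gave 16 lower and 3 higher. It joined vector 1 with CYR61 2 and vector 2 with CYR61 1, cultures alike in their GC trend. Its counts are therefore no separate support for the calls.

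Signs turned for these genes, none called. EFNB2 had 0.01 by DESeq2, with RLE factors and with either block, 0.02 by limma-voom, 0.00 without a filter, 0.04 with the GC trend removed, with or without the block, and -0.19 to 0.22 with 1 library left out. PLXND1 had 0.01 by DESeq2 and RLE factors, 0.14 with the GC trend removed, with or without the block, and -0.18 to 0.16 with 1 library left out. EPHB4 had -0.00 with library size alone, -0.01 with the stricter filter (5 CPM in 2 libraries) and -0.11 to 0.13 with 1 library left out. Also with 1 left out, EFNA5 ran from -0.28 to 0.14, SEMA3C from -0.08 to 0.15, SEMA4D from -0.09 to 0.16, SEMA4F from -0.02 to 0.35 and NRP1 from -0.29 to 0.12. The cause was not tested. EFNA2 and SEMA4G, at 12 to 29 and 16 to 25 counts per library, had SEs of 0.40 and 0.41.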
